A study of Mus musculus with 3 samples.

Results

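Transcripts of the semaphorin, plexin, Slit, Robo, netrin, Unc5, A-class ephrin and A-class Eph families were examined in endothelial cells of the adult mouse kidney cortex. The 58 genes were taken by symbol from these families without regard to their values, out of 19938 genes that had at least 1 probeset of their own on the array, and all 58 were measured. They comprise 20 semaphorins, 9 plexins, 3 Slits, 4 Robos, 4 netrins, 4 Unc5 receptors, 5 A-class ephrins and 9 A-class Eph receptors. The study sorted GFP positive cells from adult Tie2-GFP mice, line Tg(TIE2GFP)287Sato, of mixed and primarily CD-1 background and of sex given as unknown. Each of the 3 samples came from 1 kidney, and they form a single group, called replicates 1, 2 and 3 here. In this line GFP follows the promoter of Tek (Tie2), an endothelial receptor gene whose promoter is also active in some blood cells. The medulla was cut away and glomeruli were held back on a 40 µm mesh, which leaves cortical vessels outside glomeruli as the intended material.

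These families were first described as guidance cues for growing axons and are used again by blood vessels. Semaphorins signal through plexins, and the secreted class 3 semaphorins mostly need a neuropilin as co-receptor. Slits bind Robos. Netrins bind Dcc, neogenin and the Unc5 receptors. Ephrins of the A class are tethered to the membrane by a lipid anchor and bind Eph receptor tyrosine kinases on the neighbouring cell. In endothelium the repulsive cues of these families restrain sprouting and help to set where vessels may grow, and Plxnd1 and Robo4 are receptors known mainly from endothelial cells.

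The values are log2 signals per probeset. The medians of the samples lay between 5.66 and 5.70, and Pearson's r between samples was between 0.941 and 0.950 across probesets, which are not independent replicates. Each probeset was tested with limma for a mean above, and separately below, a signal of 100 (log2 6.64), the raw level that the study required of a gene. P-values were adjusted by Benjamini-Hochberg over all 35557 probesets, and "above" and "below" mean an adjusted p under 0.05. The level 100 is a convention and not a limit of detection. Probes differ in how brightly they bind, so a gene is read against this level and between samples, and not against another gene. In 40.5% of the probesets all 3 samples held the same value to 5 decimals, which leaves no spread and makes a p small even next to the level. These 14394 probesets held only 3349 distinct values, and 85.4% of them shared their value with at least 1 other such probeset, up to 157 probesets on a single value. What gave rise to equal and shared values was not tested. Of the 58 genes 37 had equal values, and 30 of those shared theirs, 29 called below and 1 above, so that most calls below rest on such values. The other 28 genes were divided into 10 above, 13 below and 5 neither. They still include genes with equal but unshared values, Efna1, Sema5a and Sema6d above and Epha2, Epha4, Plxna1 and Sema4b below. A second fit gave equal probesets the median variance of other probesets of like mean. For genes with equal values the p printed is the one from this fit, named "under a borrowed spread", which is an assumed and not a measured error. All 10 endothelial markers, with Pecam1 and Cdh5 among them, were above 100. So were 9 of 10 proximal tubule markers, while 0 of 7 leukocyte markers and 0 of 4 nerve markers were above (0 at an unadjusted p under 0.05 in limma for both lists). Also above were 3 of 5 thick ascending limb markers and 2 of 8 distal tubule and collecting duct markers. The same held for 2 of 8 smooth muscle and pericyte markers, Rgs5 and Notch3. It held for 1 of 4 podocyte markers, Podxl, and 1 of 6 fibroblast markers, Col1a1. Notch3 and Col1a1 had equal values and lost their calls under a borrowed spread (adjusted p = 0.261 and 0.232, limma). By vessel type 6 of 8 artery, 2 of 3 vein and 0 of 4 lymphatic markers were above, beside 22.9% of all genes. At an unadjusted p under 0.05 in limma, 10 proximal tubule, 4 thick ascending limb and 3 distal tubule and collecting duct markers were above. So were 4 smooth muscle and pericyte and 7 artery markers, and the counts of the other lists did not change. The paper describes its cortical endothelial cells as carrying a minor contamination, seen as a profile mainly of proximal tubule. Which cells the signal of each member came from was not tested. In sorted bulk samples fewer cells of a type and less RNA per cell cannot be told apart.

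Of the 58 genes, 11 were above a signal of 100, 42 were below and 5 were neither. Among all genes 22.9% were above and 65.0% were below, so the share above in these families, 19.0%, and the share below, 72.4%, both lay near the array as a whole. The median of the 58 means was 5.96 on the log2 scale, and that of all genes was 5.88. The genes above were Sema3f, Sema3g, Sema5a, Sema6a, Sema6d, Sema7a, Plxna2, Plxnd1, Robo4, Ntn4 and Efna1. Ligands made up 8 of them out of 32 ligand genes, and receptors 3 out of 26. Under a borrowed spread 9 genes were above and 38 below, beside 20.7% and 62.3% of all genes, and a signal of 100 or more in each sample without any test was reached by 11 members, beside 28.0% of all genes. Above a signal of 50 there were 36 members, beside 51.3% of all genes, and above 200 there were 5, beside 9.37%.

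**Figure D1:**
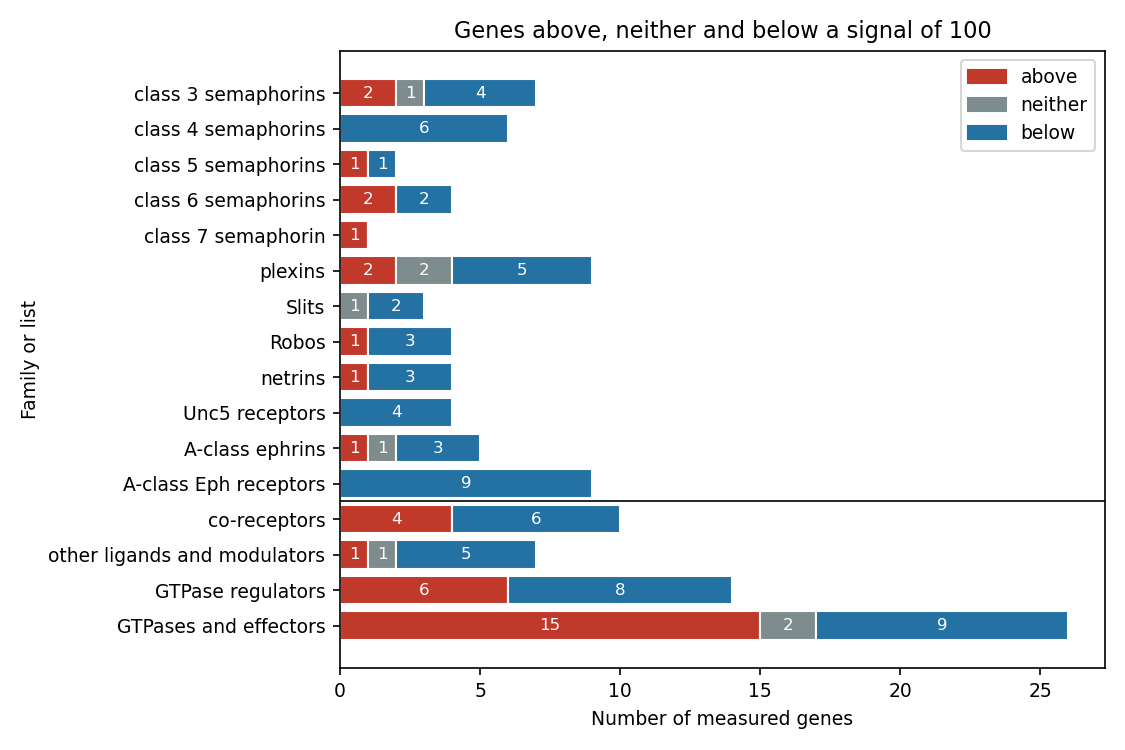
Number of measured genes (horizontal axis) above, neither above nor below, and below a signal of 100 in the 3 samples of cortical endothelial cells, by family and, under the horizontal line, by group of the pathway list. None was above (0 also at an unadjusted p under 0.05 in limma) among the 6 class 4 semaphorins, the 3 Slits, the 4 Unc5 receptors and the 9 A-class Eph receptors. Among all genes 22.9% were above and 65.0% below.

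Among the 7 secreted class 3 semaphorins, Sema3f and Sema3g were above a signal of 100 and 4 others were below. The shares of all genes were 22.9% above and 65.0% below. Sema3g, which is known as a product of arterial endothelium, stood at 8.05 on the log2 scale in all replicates, with differences only in later decimals (adjusted p = 2.69e-06, limma). Sema3f, a neuropilin 2 ligand that repels endothelial and lymphatic cells, had 7.74, 7.73 and 7.74 in replicates 1, 2 and 3 (adjusted p = 1.89e-05, limma). Both genes differed by no more than 0.01 between samples. Their distance from the level was 1.40 for Sema3g and 1.09 for Sema3f on the log2 scale. Values this close leave little spread and make a p small. In the second fit both stayed above (adjusted p = 0.000866 for Sema3g and 0.0016 for Sema3f, limma). That fit gave a borrowed spread to equal probesets only. Both genes kept their own small spread there, so it is no check on that spread.

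Sema3b lies near Sema3f on chromosome 9, with 3 protein-coding genes between them in the GRCm38 RefSeq order. It stood just under the level, with log2 signals of 6.57, 6.55 and 6.55 (adjusted p = 0.00241 for below, limma). That call ended in the second fit (adjusted p = 0.206), where Sema3b, whose values differ, kept its own spread. It also ended without replicate 3 (adjusted p = 0.0535). Sema3a, the founding axon repellent of the class, had 4.23 in each sample, and its direct neighbour on chromosome 5, Sema3d, had 4.90, 4.64 and 4.64. Sema3e, which can bind Plxnd1 without a neuropilin, had 4.45 in each sample and was also below (adjusted p = 0.000145 under a borrowed spread, limma). No value of these 3 genes came within 1.5 log2 units of the level.

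Sema3c was the member with the widest spread between samples. Replicates 1 and 2 had 5.65 and 5.65 on the log2 scale and replicate 3 had 7.19, so that only replicate 3 passed the level. The mean of 6.17 ± 0.89 (SD, n = 3) was neither above nor below (adjusted p = 0.3 for below, limma), and without replicate 3 the gene was below, on 2 values that do not differ and leave no spread. Sema3c encodes a secreted semaphorin known for its part in the outflow vessels of the heart. Replicate 3 was alone in being highest for 7 of 8 smooth muscle and pericyte markers, whose summed linear signal was 1736, 1743 and 3611 in replicates 1, 2 and 3. Myh11, the smooth muscle myosin gene, had log2 signals of 7.79, 8.14 and 9.44. Tagln, a second gene of contractile smooth muscle, had 6.41, 6.78 and 8.08. Of the other markers on that list Acta2, Cnn1, Pdgfrb, Rgs5 and Cspg4 were also highest in replicate 3, and Notch3 was equal in all samples. Replicate 3 was alone highest for 5 of 8 distal tubule and collecting duct markers too, whose summed linear signal was 1359, 1164 and 1876. The part of either kind of cell in the Sema3c values was not tested.

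All 6 class 4 semaphorins, membrane proteins known from immune cells and epithelia, were below a signal of 100, beside 65.0% of all genes. Their mean log2 signals ran from 5.54 for Sema4f to 6.21 for Sema4a, and 5 of the 6 had the same value in each sample. Sema4d, the ligand of Plxnb1, had 5.77 in every sample (adjusted p = 0.00104 under a borrowed spread, limma), a value that 75 other probesets held too, and its second probeset had 5.59 and was below as well. Sema4g was the gene of this class that varied, at 5.80, 5.80 and 5.94, and each value stayed under the level.

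The class 5 semaphorins carry thrombospondin repeats and lay on either side of the level. Sema5a, which has been tied to the growth of endothelial cells, had 6.78 in each sample and Sema5b had 6.36 in each. Sema5a was called above and Sema5b below, but both calls rest on equal values. Neither was kept under a borrowed spread, with an adjusted p in limma of 0.623 for Sema5a and 0.0548 for Sema5b.

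Of the 4 transmembrane class 6 semaphorins, Sema6a and Sema6d were above and Sema6b and Sema6c below, beside 22.9% and 65.0% of all genes. Sema6a, a ligand of Plxna2 and Plxna4 that is expressed by endothelial cells, had 8.33, 8.40 and 8.32 on the log2 scale and averaged 8.35 ± 0.04 (SD, n = 3; adjusted p = 0.000358, limma). Sema6d, which pairs with Plxna1 and has been described in a complex with the VEGF receptor Kdr, had 7.88 in each sample (adjusted p = 0.00663 under a borrowed spread). Both genes averaged at least 1.24 log2 units over the level, and the equal values of Sema6d are no measure of how little it varies. Sema6b had 6.28 in each sample on both of its probesets, and Sema6c had 5.67, 5.67 and 5.69.

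Sema7a, the one semaphorin held by a glycolipid anchor and a ligand of beta1 integrins and Plxnc1, was above a signal of 100. It had 8.73, 8.67 and 8.32 on the log2 scale and averaged 8.57 ± 0.22 (SD, n = 3; adjusted p = 0.00702, limma). Replicate 3 was lowest, and all 3 values passed the level by more than 1.5 log2 units. The call was lost without replicate 1 (adjusted p = 0.0889) or replicate 2 (adjusted p = 0.1) and kept without replicate 3 (adjusted p = 0.0294).

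**Figure D2:**
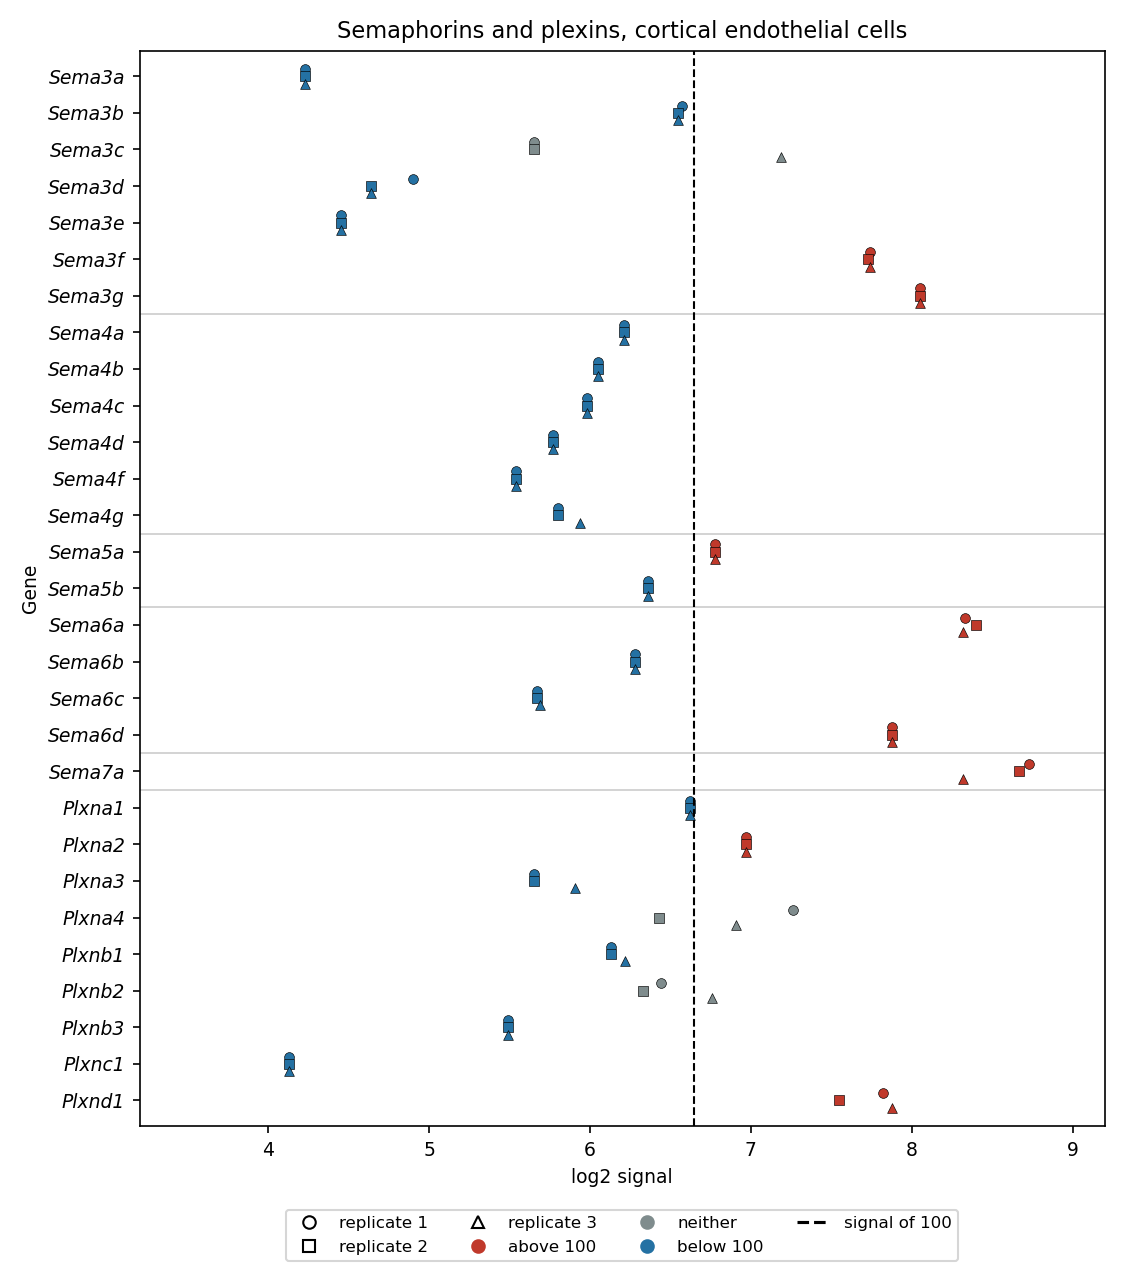
Log2 signal (horizontal axis) of each semaphorin and plexin gene (rows, grouped by class) in the 3 samples of cortical endothelial cells, with colour for the result of the test against a signal of 100 (dashed line, log2 6.64). Sema3f, Sema3g, Sema6a, Sema6d, Sema7a and Plxnd1 lie clear of the line on its right in each sample, and Sema3c crosses it only in replicate 3, at 7.19.

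Among the 9 plexins, the receptors of the semaphorins, Plxnd1 and Plxna2 were above, 5 were below and 2 were neither. The plexin shares, 22.2% above and 55.6% below, lay near those of all genes, 22.9% and 65.0%. Plxnd1, the plexin of developing endothelium, had 7.82, 7.55 and 7.88, and its mean was 7.75 ± 0.17 (SD, n = 3; adjusted p = 0.0125, limma). Replicate 2 was lowest but still 0.9 log2 units over the level. The call was lost without replicate 1 (adjusted p = 0.14) or replicate 3 (adjusted p = 0.173) and kept without replicate 2 (adjusted p = 0.0225). Plxna2 had 6.97 in each sample, a distance of 0.33 from the level and a value held by 13 other probesets, and was not above under a borrowed spread (adjusted p = 0.153, limma).

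Plxna4 and Plxnb2 were neither above nor below, and their samples fell on both sides of the level. Plxna4, which with Nrp1 relays Sema3a signals in neurons, had 7.26, 6.43 and 6.91 in replicates 1, 2 and 3 (mean 6.87 ± 0.42, SD, n = 3; adjusted p = 0.763 for above, limma). Only replicate 2 was under the level. Replicate 2 was also alone lowest for 4 of 5 thick ascending limb markers, with Cldn16 lowest in replicate 3 instead, and their summed linear signals were 3732, 2133 and 3501. It was alone lowest for 7 of 10 proximal tubule markers and for 5 of 8 distal tubule and collecting duct markers as well. The part of tubule cells in the Plxna4 values was not tested. Plxnb2, a broadly used plexin that acts in kidney epithelia, had 6.44, 6.33 and 6.76, and only replicate 3 passed the level (adjusted p = 0.269 for below, limma).

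The other 5 plexins were below. Plxnc1, the receptor that Sema7a shares with viral semaphorins, had 4.13 in each sample (adjusted p = 0.000146 under a borrowed spread, limma), and Plxnb3, a receptor for Sema5a, had 5.49 in each. Plxnb1, the Sema4d receptor, had 6.13, 6.13 and 6.22, and Plxna3 had 5.65, 5.65 and 5.91. Plxna1 had 6.62 in each sample, only 0.03 under the level, and it was not below under a borrowed spread (adjusted p = 0.598, limma), after quantile normalization (adjusted p = 0.267) or with the columns shifted to the same median (adjusted p = 0.238).

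Co-receptors were followed with a list of 10 genes, of which Nrp1, Nrp2, Neo1 and Met were above a signal of 100 and 6 were below. Among all genes 22.9% were above and 65.0% below. Nrp1, the neuropilin that also binds VEGF, had log2 signals of 10.33, 10.15 and 9.79 (mean 10.09 ± 0.28, SD, n = 3; adjusted p = 0.00345, limma). Nrp2, the neuropilin of Sema3f and Sema3g, had 7.14, 7.14 and 6.96 (adjusted p = 0.0298). Met, the hepatocyte growth factor receptor that can associate with B-class plexins, had 8.28 in each sample (adjusted p = 0.00321 under a borrowed spread). Erbb2, another kinase partner of B-class plexins, had 6.54 in each sample and was called below, but not under a borrowed spread (adjusted p = 0.303, limma).

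Robo4 was the one Robo gene above a signal of 100. It had 7.98, 8.01 and 7.61 on the log2 scale in replicates 1, 2 and 3 and averaged 7.87 ± 0.22 (SD, n = 3; adjusted p = 0.017, limma), and replicate 3 was lowest. With 2 samples the call was lost without replicate 1 (adjusted p = 0.158) or replicate 2 (adjusted p = 0.149) and kept without replicate 3 (adjusted p = 0.0194). Robo4 differs from the other Robos in its short extracellular part and is known for keeping endothelium quiescent. Robo3, its direct neighbour on chromosome 9 and a regulator of commissural axons, was below with 5.86, 5.86 and 5.83 (adjusted p = 5.38e-05, limma). Robo1 and Robo2, the receptors of Slit2 in the nervous system and in early kidney formation, lie next to each other on chromosome 16 and were both below, at 4.81 and 5.21 in each sample.

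The start regions of Robo4 and Robo3 are printed because these neighbours fell on opposite sides of the level. They come from RefSeq (GRCm38.p6), run from 250 bases before to 50 bases after the annotated start, and read 5′ to 3′ on the strand of the gene. Capitals mark TTCCTG, a form of site for ETS factors, and a GC box, GGGCGG. Each was searched on both strands, so that CAGGAA and CCGCCC count too. Other forms of these sites were not searched and stay in lower case. The Robo4 region is chr9:37401722-37402021 on the plus strand, and the Robo3 region is chr9:37433126-37433425 on the minus strand.
Robo4: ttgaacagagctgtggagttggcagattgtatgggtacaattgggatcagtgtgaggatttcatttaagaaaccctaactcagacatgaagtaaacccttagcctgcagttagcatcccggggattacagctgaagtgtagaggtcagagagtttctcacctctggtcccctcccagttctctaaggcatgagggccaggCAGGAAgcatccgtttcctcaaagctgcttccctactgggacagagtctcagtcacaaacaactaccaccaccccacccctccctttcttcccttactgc
Robo3: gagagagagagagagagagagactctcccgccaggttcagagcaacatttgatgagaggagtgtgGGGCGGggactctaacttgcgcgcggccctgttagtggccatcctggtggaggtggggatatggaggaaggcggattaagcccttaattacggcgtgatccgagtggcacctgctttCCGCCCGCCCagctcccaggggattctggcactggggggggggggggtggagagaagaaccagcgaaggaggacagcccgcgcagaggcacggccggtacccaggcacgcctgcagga
The Robo4 region holds 1 match to TTCCTG, at base 201, and 0 GC boxes. The Robo3 region holds 0 matches to TTCCTG and 3 GC boxes, of which 2 overlap. These counts cover the searched letters only and are no count of all ETS sites. Of all 32851 RefSeq start regions of this length 30.6% hold TTCCTG on either strand and 35.7% the GC box. These matches describe the letters in these windows and say nothing of factors bound in these cells. A start region was found for 50 of the 58 genes.

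None of the 3 Slit genes was above a signal of 100, beside 22.9% of all genes. Slit2, the ligand of Robo1 and Robo2 that positions the ureteric bud, had 5.89 in each sample, and Slit1 had 5.59 in each, and both were below (adjusted p = 0.00167 for Slit2 and 0.000646 for Slit1 under a borrowed spread, limma). Slit3, which has been described in endothelial and smooth muscle cells, lay on the level with 6.63, 6.63 and 6.72 and was neither above nor below (adjusted p = 0.978 for below, limma). Without replicate 3, its highest sample, it was below, again on 2 values without spread.

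Of the 4 netrins only Ntn4 was above a signal of 100, beside 22.9% of all genes. Ntn4, a netrin of basement membranes that binds laminins, had 7.43, 7.43 and 7.11 on the log2 scale and averaged 7.32 ± 0.18 (SD, n = 3; adjusted p = 0.0357, limma). Replicate 3 was lowest, as it was for Robo4 and Sema7a. The call was lost without replicate 1 (adjusted p = 0.233) or replicate 2 (adjusted p = 0.232) and kept without replicate 3, on 2 values that leave no spread. Ntn1, the netrin of the neural floor plate, had 6.12, 6.04 and 6.12 and was below (adjusted p = 0.000911), as were Ntn3 at 5.95 and Ntn5 at 5.32 in each sample.

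All 4 Unc5 genes, the repulsive netrin receptors, were below a signal of 100, beside 65.0% of all genes. Unc5b, the Unc5 receptor of endothelial tip cells and a partner of Robo4, had 6.22 in each sample (adjusted p = 0.0184 under a borrowed spread, limma). Unc5c varied with 5.78, 5.86 and 5.60, Unc5a had 5.15 in each sample, and Unc5d had 5.70 and 5.16 in each sample on its 2 probesets. The other netrin receptors differed in their calls. Neo1 (neogenin) was above with 7.33, 7.33 and 7.38 (adjusted p = 0.000865, limma), and Dcc, the attractive netrin receptor of axons, was below with 5.17 in each sample. Among the ligands that bind neogenin or Unc5 receptors outside the netrin family, Rgma had 6.74, 6.55 and 6.74 and was neither, Rgmb and Draxin were below, and of the Flrt genes Flrt1 was above and Flrt2 and Flrt3 were below. Flrt1, at 6.75 in each sample, and Rgmb, at 6.63, lost their calls under a borrowed spread (adjusted p = 0.793 for Flrt1 and 0.669 for Rgmb, limma).

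Efna1 was the A-class ephrin above a signal of 100, with 8.44 on the log2 scale in every replicate, a value no other equal probeset held (adjusted p = 0.00224 under a borrowed spread, limma). It encodes ephrin-A1, an endothelial ephrin that is induced by tumour necrosis factor and binds Epha2. Efna3 and Efna4 follow Efna1 directly on chromosome 3 with no protein-coding gene between them, and both were below, at 3.97 and 5.12 in each sample (adjusted p = 0.000142 for Efna3 and 0.000286 for Efna4 under a borrowed spread, limma). Efna2 had 4.87 in each sample and was below.

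Efna5, an ephrin that guides retinal axons, had 6.64, 7.52 and 7.48 on the log2 scale in replicates 1, 2 and 3. Replicate 1 sat on the level, and replicates 2 and 3 were higher by more than 0.8 log2 units. The mean of 7.21 ± 0.49 (SD, n = 3) was neither above nor below (adjusted p = 0.3 for above, limma), and without replicate 1 it was above (adjusted p = 0.0204).

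All 9 A-class Eph receptors were below a signal of 100, beside 65.0% of all genes. Each had the same value in the 3 samples, as 51.2% of all genes did. The mean log2 signals of the receptors ran from 3.62 for Epha6 to 6.64 for Epha4. Epha2, the ephrin-A1 receptor of epithelia and of endothelium that is being remodelled, had 6.01 (adjusted p = 0.00436 under a borrowed spread, limma). Epha1 had 5.38, Epha3 had 4.47, Epha5 had 4.30, Epha7 had 5.09, Epha8 had 5.75 and Epha10 had 6.24. The second probeset of Epha10 had 6.13, 6.14 and 5.80 and was below as well. Epha4, which binds ephrins of both the A and the B class, had a linear signal of 99.5, next to the level. Its call ended under a borrowed spread (adjusted p = 0.674, limma), after quantile normalization (adjusted p = 0.566) and with columns shifted to the same median (adjusted p = 0.536), and the other 8 receptors kept theirs under these settings.

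**Figure D3:**
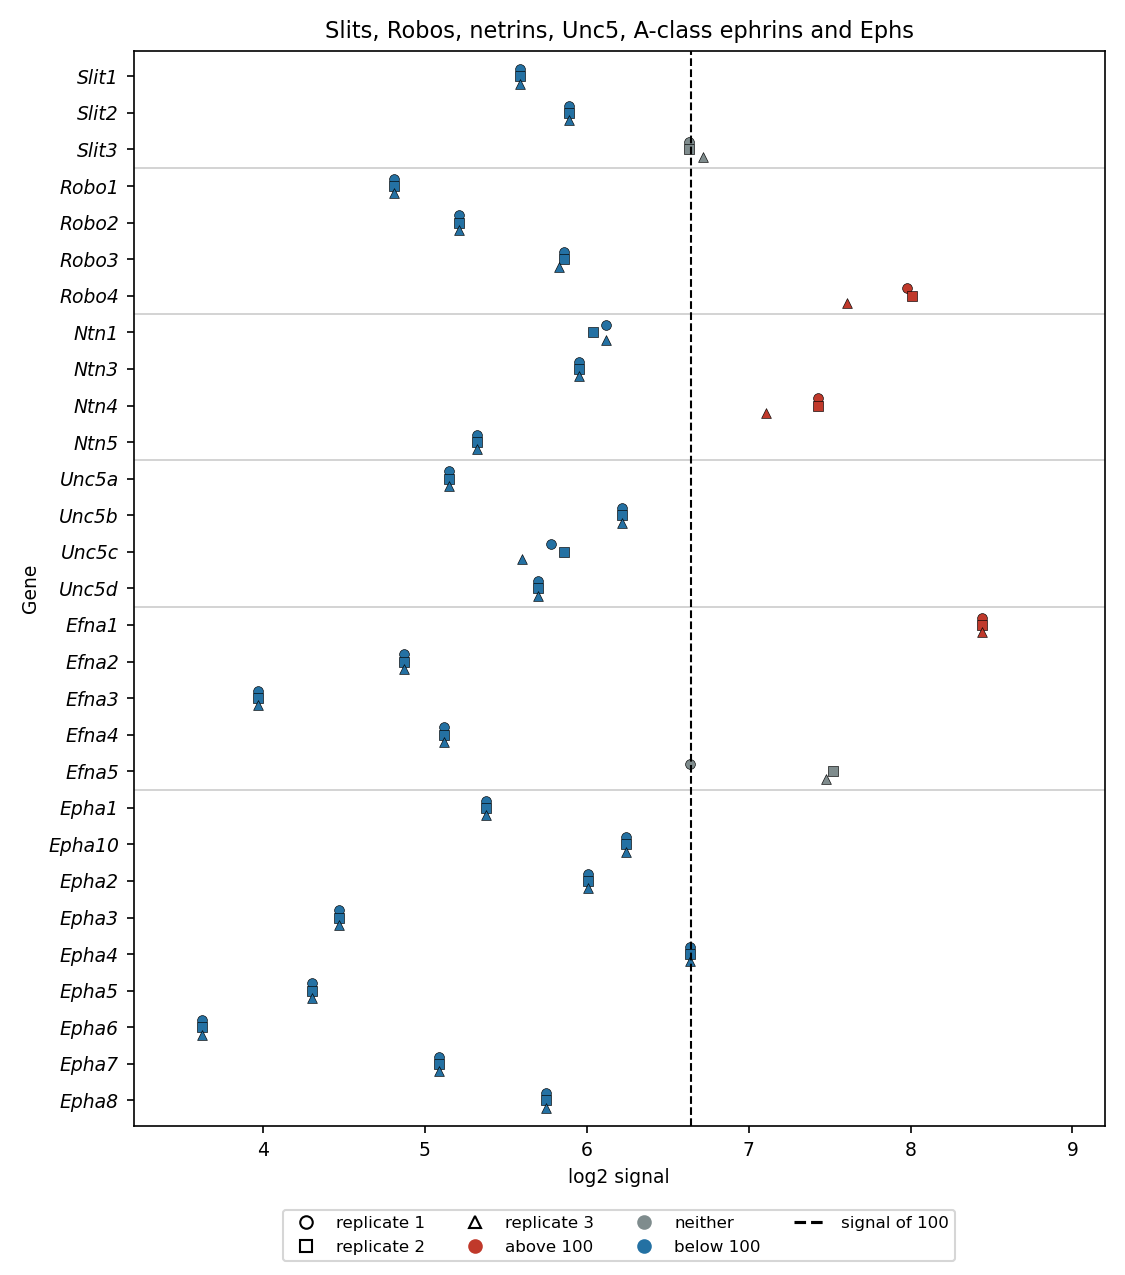
Log2 signal (horizontal axis) of each Slit, Robo, netrin, Unc5, A-class ephrin and A-class Eph gene (rows) in the 3 samples of cortical endothelial cells, with colour for the result of the test against a signal of 100 (dashed line, log2 6.64). Robo4, Ntn4 and Efna1 lie right of the line in each sample, with replicate 3 lowest for Robo4 (7.61) and Ntn4 (7.11), and the 9 Eph receptors lie at or left of it.

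Downstream of these receptors, 15 of 26 measured GTPases and effectors were above a signal of 100, 9 were below and 2 were neither, where 22.9% of all genes were above and 65.0% below. Rac1 had log2 signals of 10.70, 10.64 and 10.78, Cdc42 had 10.92, 10.87 and 10.92, and Rhoa had 10.99, 10.81 and 11.16, and these GTPases, which set actin dynamics in most cells, were above by about 4 log2 units (adjusted p = 0.000923 or less for each, limma). Rras, whose GTP form plexins switch off, had 9.17, 9.19 and 8.97 and was above (adjusted p = 0.00142). Rnd1, a GTPase that binds plexins, had 5.48 in each sample and was below. Among the collapsin response mediators, which relay Sema3a signals in neurons, Dpysl2 was above with 7.63, 7.60 and 7.60, while Dpysl3, Dpysl4, Dpysl5 and Crmp1 were below, at means from 5.05 to 6.23.

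Of 14 GTPase regulators on the list 6 were above and 8 below. Arhgef12, an exchange factor that B-class plexins recruit, had 8.85 in each sample (adjusted p = 0.00133 under a borrowed spread, limma). Its relative Arhgef11 had 6.73 in each and was not above under a borrowed spread (adjusted p = 0.954). Arhgef15, an exchange factor of endothelial cells that acts downstream of Eph receptors in neurons, had 8.25, 7.82 and 7.72 (adjusted p = 0.0245). Of the Slit-Robo GTPase activating proteins Srgap2 was above with 7.51 in each sample, and Srgap1 and Srgap3 were below with 5.65 and 5.81. Over the whole list, which was drawn up with earlier results of these data known, 26 of 57 measured genes were above, a share of 45.6% beside 22.9% of all genes, and 28 were below, 49.1% beside 65.0%. Under a borrowed spread 21 were above and 25 below.

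In 37 of the 58 genes, 63.8%, the 3 samples were equal, and this held for 51.2% of all genes. Since the origin of equal values was not tested, they are no measure of how little these genes vary, and the spread between samples may be understated. All 3 samples differed in 8 members, 13.8%, beside 20.5% of all genes. In the remaining members 2 samples were equal and 1 lay apart, with Ntn4, Sema3f and Sema3g among those above. A range of 0.5 log2 units or more was found in 3 members, Sema3c, Efna5 and Plxna4, a share of 5.17%, against 12.8% of all genes. In 8 members the range was 0.3 or more. Replicate 3 was alone highest in 9 members and alone lowest in 6. The members above that were lowest in replicate 3 included Sema7a, Robo4 and Ntn4, and Nrp1 on the list of co-receptors had its lowest value there too. Plxnd1, also above, was instead highest in replicate 3, at 7.88. Replicate 3 was alone lowest for 4 of 10 endothelial markers and alone highest for 1. Kdr and Tek were among the 4, with log2 signals of 9.72, 9.70 and 8.79 for Kdr and 10.55, 10.44 and 10.24 for Tek. Cdh5 and Flt1 did not show such a fall, at 10.62 and 10.47 in each sample to 2 decimals. The summed linear signal of the 10 endothelial markers was 11044, 11538 and 9408, a sum in which bright genes such as Emcn weigh most. The median deviation of these markers from their own means was 0.02, 0.00 and -0.01 log2 units in replicates 1, 2 and 3. With 1 group of 3 samples no difference between samples can be tested, and the part of cell mixture in these values was not tested.

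**Figure D4:**
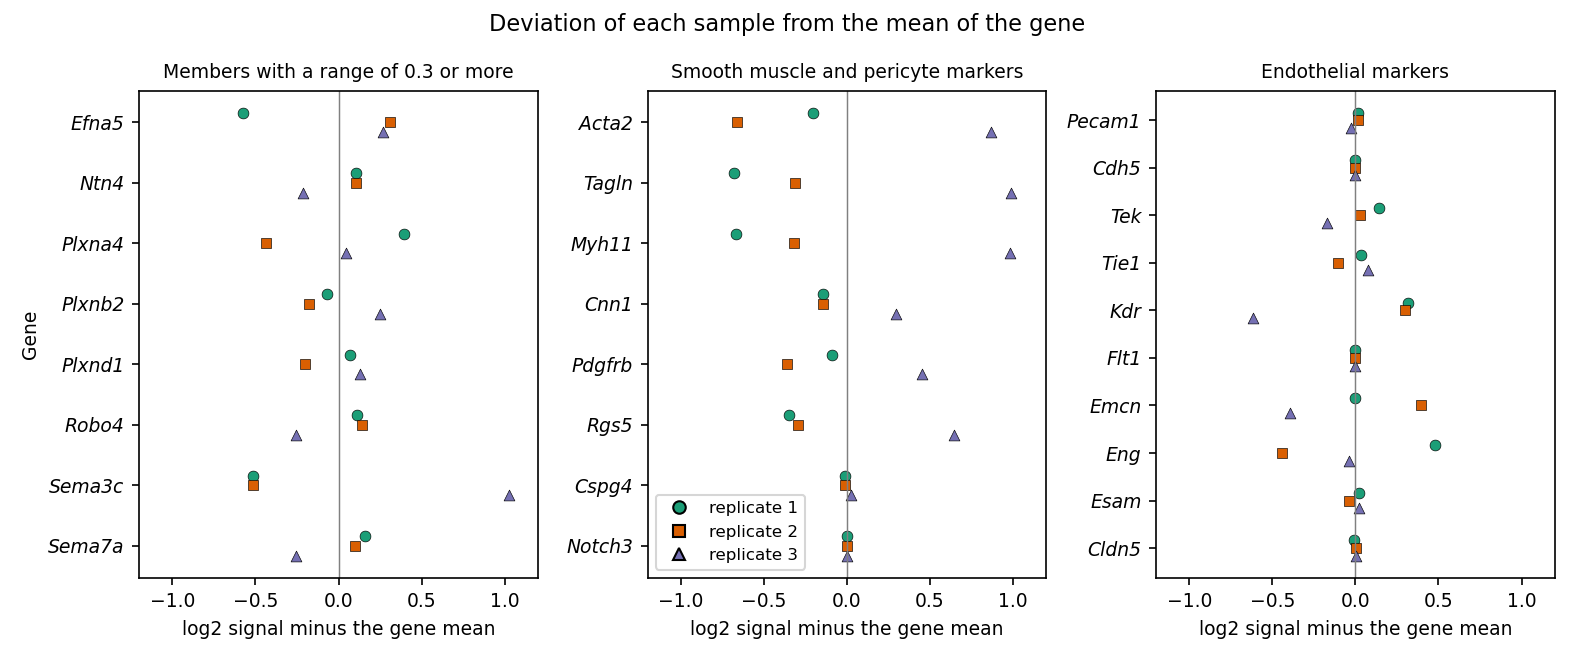
Log2 signal of each sample minus the mean of the gene over the 3 samples (horizontal axis) for the 8 members with a range of 0.3 or more (left), 8 smooth muscle and pericyte markers (middle) and 10 endothelial markers (right). Sema3c, Plxnb2, Plxnd1 and 7 of the 8 smooth muscle and pericyte markers are highest in replicate 3. Robo4, Ntn4 and Sema7a are lowest there.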

How the data were processed

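RNA of the sorted cells was amplified in 1 round and hybridized to Affymetrix Mouse Gene 1.0 ST arrays, 1 per sample. The authors deposited log2 signals, summarised per probeset and normalized between arrays. Their paper names RMA, and the submitters' processing notes name Affymetrix Expression Console. Its version is not given in the sources used here, nor is the set of arrays that was processed jointly. RMA summarises by median polish, which can return the same value for several arrays, and its part in the equal values was not tested. Values are called equal when all 5 decimals match. The table held 35557 probesets, of which 21789 had 1 gene in the probe annotation, 1621 several and 12147 none. A gene was taken at its probeset with the highest mean.

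Probesets were fitted with limma 3.58.1 in R 4.3.3 (intercept only, variance trend, one-sided, residual df 2, prior df 0.297) against log2 of 100. The fit was also run on simulated data, with noise drawn independently for each sample. Such draws do not give 2 equal samples with 1 apart, so they are no check on that pattern. The number of arrays and the equal values limit the precision. The paper calls its samples independent and biological, without naming the animal of each. Where values differ, p-values measure the spread between these samples, which rests on 1 sample apart where the other 2 are equal. For equal values a p under a borrowed spread does not, since its error is taken from other probesets. All members are named. Members above, neither, or with a range of 0.5 or more are given per sample, and on the pathway list up to 4 genes per group, with others chosen after their values were seen. The members and lists were chosen with earlier results of these data known. The borrowed spread used 20 bins of mean signal. Other alternatives were limits of 50 and 200, no test, a filter at 50, no variance trend, quantile normalization, equal column medians, the mean of a gene's probesets and each replicate left out. Counts of members with a wide range under other settings were added after seeing the data. Of the pathway list 57 of 61 genes had a probeset of their own. Figures were drawn with matplotlib 3.10.9.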

Additional observations from a re-analysis of the deposited data

How the results depend on the processing

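Single members were tested under a borrowed spread, no variance trend, quantile normalization, equal column medians, the mean of a gene's probesets and with each sample left out, and not under other limits or filters. Of the 58 members, 52 kept their call under the 5 settings that keep all samples, 50 kept it with each sample left out, and 45 under both kinds. The exceptions among the first are Epha4, Plxna1, Plxna2, Sema3b, Sema5a and Sema5b. With a sample left out the call changed for Efna5, Ntn4, Plxnd1, Robo4, Sema3b, Sema3c, Sema7a and Slit3, which all had differing values. The 37 members with equal values keep those values when a sample is left out. For them leaving samples out is no check on the call. With a limit of 50, 36 members were above and 19 below, and 42 and 11 genes of the pathway list. With a limit of 200, 5 members and 11 pathway genes were above. When probesets with a mean signal under 50 were filtered out, 23 members and 13 pathway genes were below, since fewer genes were tested. With 1 replicate left out, the members above numbered 8 to 10 and those below 42 to 43, and the pathway genes above 21 to 24 and below 23 to 26. The number of members with a range of 0.5 or more was then 1 to 2, since fewer samples give a smaller range, and it was 1 without replicate 1. Slit3 changed direction without replicate 3, at -0.011 on the log2 scale from the level, against 0.02 with all samples and 0.03 without replicate 1 or 2. No paired analysis was possible because the samples form 1 group. Signals under 100 do not show that a transcript is absent.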
